A study of Mus musculus with 2 samples.

Results

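Astrocytes with little *Cd44* and *A2m* RNA were examined in single-nucleus RNA sequencing (snRNA-seq) libraries of the mouse hippocampus. A nucleus was taken as a member when it held 600 or more unique molecular identifiers (UMIs) from 300 or more genes, with no more than 5% of them mitochondrial, when the astrocyte genes *Gpc5*, *Slc1a3*, *Rfx4* and *Aqp4* together reached 30 per 10000 of its UMIs, and when markers of 4 other classes stayed low. The last condition was fewer than 3 UMIs over *Cd44*, *A2m*, *Aldh1a1* and *Angpt1*. These thresholds took 1024 of the 20594 nuclei past the filter, 474 of 10466 in the PS19 library (4.53%, exact binomial 95% interval 4.14 to 4.94) and 550 of 10128 in the PZKO library (5.43%, 5.0 to 5.89). Of the nuclei that met all astrocyte thresholds before the split on *Cd44* and *A2m*, the members were 39.8% in PS19 (37.0 to 42.6) and 41.3% in PZKO (38.7 to 44.0).

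PS19 mice carry a human tau transgene with the P301S mutation, driven by the mouse prion protein promoter and not specific to any brain cell type, and they were wild type for *Zbp1*. PZKO mice carry the same transgene and lack *Zbp1*, which encodes an innate immune sensor of Z-form nucleic acids. Both libraries therefore come from tauopathy mice and no library of mice without tau was analysed here. Each library is 1 pool of hippocampi from 5 males aged 9 months. There is 1 library per genotype, so no difference between genotypes has a replicate check, no test was made, and all intervals cover counting error within these libraries only. Pool, library preparation and genotype cannot be told apart.

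Astrocytes clear glutamate and potassium from around synapses, make cholesterol and lipoproteins that neurons take up, and form the end-feet that line brain vessels. In disease they can become reactive, a state marked by the intermediate filaments *Gfap* and *Vim* and, in some settings, by interferon-stimulated genes and by the pair *Cd44* and *A2m*. The astrocytes described here hold little RNA of that pair.

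The values of the genes in the rule are a description of the choice. *Cd44*, a hyaluronan receptor, stood at 13.4 CPM, the counts of a gene scaled to the same total of UMIs in each library, in PS19 members and 7.8 CPM in PZKO members, against 193 and 172 CPM in the astrocytes on the other side of the split. *A2m*, a protease inhibitor, stood at 12.7 and 6.5 CPM against 246 and 122 CPM. No UMI of the 4 genes was found in 215 PS19 members and 265 PZKO members. Just inside the threshold, 117 and 115 members held 2 UMIs, and just outside it 89 and 82 astrocytes held 3. The split counts raw UMIs, and the median member held 5381.5 UMIs in PS19 and 7235.5 in PZKO, so the same raw count is a lower level per UMI in the deeper PZKO library. Astrocytes outside the split were deeper, with medians of 7844 and 10525 UMIs.

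The markers given for these cells were checked first. Some members carried RNA of other classes. In 79 PS19 members (16.7%) and 95 PZKO members (17.3%) the neuronal genes *Snap25*, *Syt1*, *Rbfox3* and *Grin2a* together reached 10 per 10000 UMIs, and these nuclei held 19.4% and 32.2% of the members' UMIs. Genes of oligodendrocyte precursors (*Lhfpl3*, *Pcdh15*, *Tnr*) reached the same level in 30 and 36 members, those of fibroblasts (*Slc6a20a*, *Bicc1*, *Cped1*) in 18 and 19, and those of endothelial cells (*Flt1*, *Adgrl4*, *Slco1a4*, *Mecom*) in 9 and 8. Of the precursor-marked members, 19 and 28 had *Slc1a2*, *Gja1* and *Slc4a4* together below 10 per 10000 UMIs. Of the fibroblast-marked members 10 and 8 were below that level, and of the neuronal-marked members 9 and 26. The label of an astrocyte went against the RNA of these nuclei. In all, 121 PS19 members (25.5%) and 129 PZKO members (23.5%) carried at least 1 of the 4 sums. They held 27.0% and 36.7% of the members' UMIs. Of them, 32 and 43 were below that level of the 3 astrocyte genes, and the others reached it. The results are therefore given for the 353 PS19 and 421 PZKO members without any of the 4 sums, called core members here. Values over all members stand beside the main counts. This restriction was chosen after the data had been seen. Of the neuronal-marked members, 34 and 27 held under 1000 UMIs, where 1 UMI of these genes reaches the level. Only 1 or 2 neuronal UMIs were found in 18 and 14 of the neuronal-marked members. Nuclei under 1000 UMIs numbered 37 and 28 among all those left out and 3 and 2 among core members. The restriction therefore also removed shallow nuclei.

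**Figure D1:**
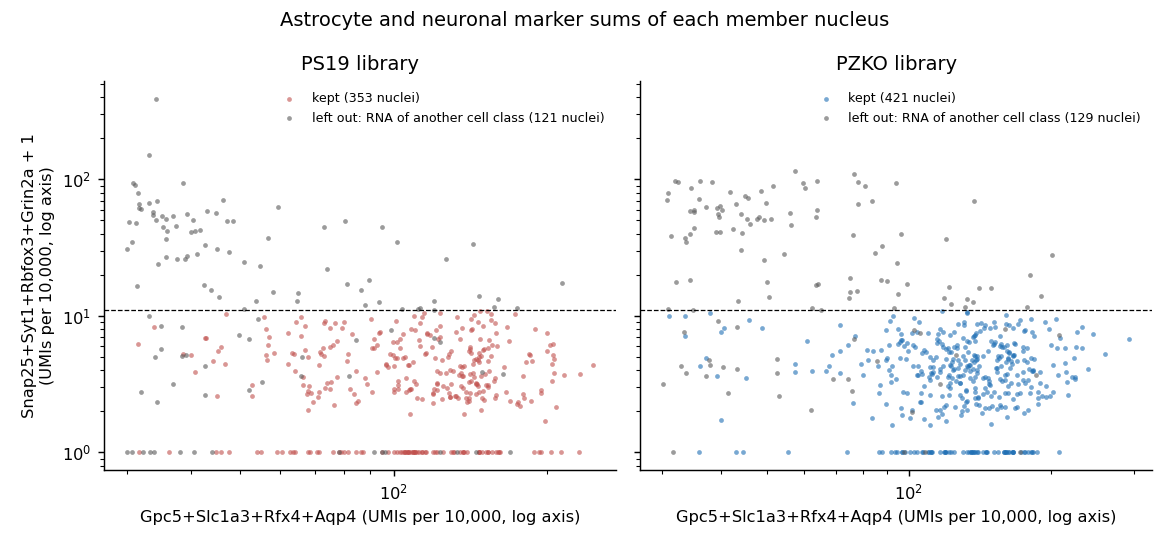
Each point is 1 member nucleus of the PS19 library (left) or the PZKO library (right). The x axis gives the sum of the astrocyte genes of the rule per 10,000 UMIs and the y axis the sum of *Snap25*, *Syt1*, *Rbfox3* and *Grin2a* per 10,000 UMIs plus 1, both on log axes, and the dashed line marks a neuronal sum of 10. Grey points are the 121 and 129 nuclei left out for RNA of another class, and those below the line carry precursor, fibroblast or endothelial genes.

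In core members the astrocyte markers stood far above their level in nuclei outside the astrocyte gate, as they did in the astrocytes high in *Cd44* and *A2m*. *Slc1a2*, the main glutamate transporter of astrocytes and no part of the rule, stood at 8648 CPM in PS19 and 9522 CPM in PZKO and had a UMI in 100% of core members in both libraries. In all nuclei outside the gate it stood at 367 and 399 CPM, with a UMI in 71.4% and 80.4% of them. In the astrocytes high in *Cd44* and *A2m* it stood at 6250 and 6623 CPM. Values of the high astrocytes in this paragraph include 51 PS19 and 99 PZKO nuclei with RNA of another class. Those nuclei held 7.92% and 18.1% of the UMIs of the high astrocytes, so the comparison with core members is not like for like. *Grin2c*, an NMDA receptor subunit typical of astrocytes, stood at 225 and 261 CPM against 4.1 and 5.4 CPM outside the gate and 144 and 164 CPM in the high astrocytes. *Gli3*, a transcription factor of the hedgehog pathway, stood at 554 and 674 CPM against 9.5 and 9.7 CPM outside the gate and 423 and 475 CPM in the high astrocytes. Of the markers that the rule used, *Gpc5* stood at 8059 and 9969 CPM, *Slc1a3* at 3280 and 2910 CPM and *Rfx4* at 403 and 416 CPM. In the high astrocytes *Gpc5* was at 5421 and 6195 CPM and *Rfx4* at 478 and 475 CPM. The markers thus name astrocytes on both sides of the split. *Slc1a2*, *Grin2c*, *Gli3* and *Gpc5* were higher in core members than in the high astrocytes and *Rfx4* was lower. *Aqp4*, also a gene of the rule, was lower as well, at 423 and 235 CPM against 770 and 634 CPM. *Slc1a3* was close on both sides, with 3178 and 2907 CPM in the high astrocytes. In the nuclei left out, *Slc1a2* was at 3058 and 2259 CPM and *Snap25*, a presynaptic gene of neurons, at 549 and 878 CPM, against 72.9 and 51.1 CPM in core members.

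RNA of other classes was still present in core members. The share of an ambient profile was estimated at 29.99% of PS19 and 36.4% of PZKO UMIs of core members. Whether the RNA of other classes was free RNA or came from other nuclei was not tested. The 10 excitatory neuron markers summed to 561 and 521 CPM against 6801 and 7264 CPM outside the gate, and the 10 oligodendrocyte markers to 833 and 617 CPM against 2608 and 1951 CPM. The 10 microglial markers summed to 177 and 131 CPM against 497 and 338 CPM, the 9 choroid plexus markers to 754 and 315 CPM against 1471 and 622 CPM, the 11 endothelial markers to 143 and 152 CPM, and the 8 fibroblast markers to 140 and 152 CPM. Every marker of excitatory neurons, oligodendrocytes and microglia had UMIs in both libraries. Of the other 3 lists, the fibroblast collagen *Col3a1* was at 0 in both libraries, *Slc6a13* (fibroblasts) and *Kcnj8* (endothelial list) were at 0 in PS19, and *Lum* (fibroblasts) and *2900040C04Rik* (choroid plexus) at 0 in PZKO. *Ttr*, made by the choroid plexus, had a UMI in 90.4% of PS19 and 39.0% of PZKO core members and in 93.5% and 37.8% of nuclei outside the gate, so it was spread over all nuclei alike. *Zbp1* itself gave 1 UMI in the PS19 members and 0 in the PZKO members, and 95 and 48 UMIs in nuclei outside the gate. The 3′ tags of this gene (chr2:173206612-173218923, minus strand, mm10) do not report on a deletion elsewhere in it. The 2 libraries shared 47 barcodes, and 1 barcode named a member in both.

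Between the genotypes most genes of core members lay close to each other. Of the 7319 genes that reached 100 UMIs in the libraries combined, 400 (5.47%) were 1.5-fold or more lower in PZKO and 139 (1.9%) were 1.5-fold or more higher, with a median log2 ratio (PZKO over PS19) of -0.02. Over all members, 787 of 9285 genes (8.48%) were lower and 568 (6.12%) were higher. Other scalings moved that balance. With TMM factors, 270 genes were lower and 243 higher in core members, and 547 lower and 738 higher over all members. Counts in the gene lists are to be read against these shares.

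**Figure D2:**
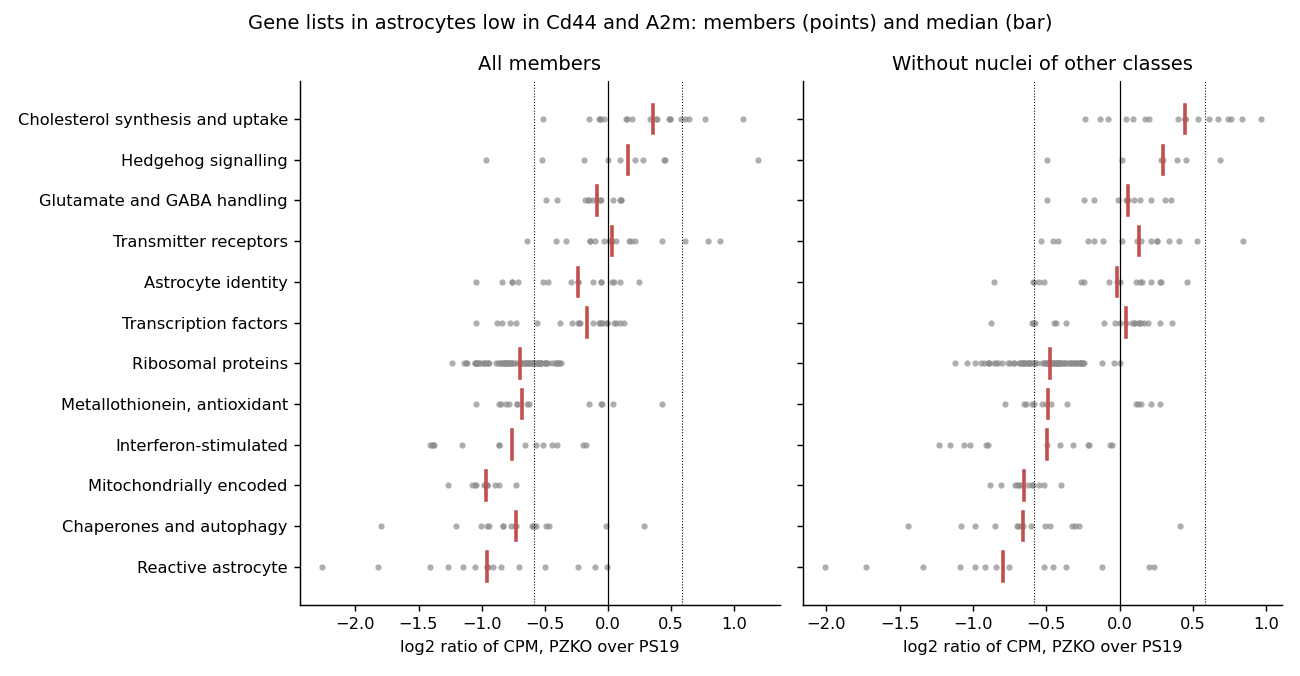
Points are genes that reached 100 UMIs in the libraries combined, placed by their log2 ratio of CPM, PZKO over PS19, and red bars mark the median of each list. The left panel holds all members and the right panel the members without nuclei of other classes, and dotted lines mark 1.5-fold. Without the other classes, the bar of the reactive list sits at -0.80 and that of the cholesterol list at 0.45.

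Genes of the reactive state were lower in PZKO. Of 39 reactive astrocyte genes, 14 passed the filter on UMIs, 8 were 1.5-fold or more lower, none was higher, and the median was -0.80. Over all members, 12 of 16 were lower, with a median of -0.96. All 39 genes summed to 1818 CPM in PS19 and 1051 CPM in PZKO. In the astrocytes outside the split, treated the same way, the median was -0.40 over the 26 genes that passed there.

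*Gfap* (ENSMUSG00000020932, chr11:102887336-102900912, minus strand, mm10), an intermediate filament used as a marker of reactive astrocytes, gave 1343 UMIs in PS19 and 986 in PZKO, or 649 CPM (614 to 684) and 305 CPM (287 to 325). Its log2 ratio was -1.09 (95% interval -1.21 to -0.97). *Vim* (ENSMUSG00000026728, chr2:13573927-13582826, plus strand), the filament that joins *Gfap* in reactive cells, gave 209 and 81 UMIs, or 100.9 and 25.1 CPM, a ratio of -2.01 (-2.40 to -1.63). It had a UMI in 123 of the PS19 and 66 of the PZKO core members. *Serpina3n* (ENSMUSG00000021091, chr12:104406729-104414329, plus strand), a secreted protease inhibitor, gave 115 and 54 UMIs and a ratio of -1.73 (-2.23 to -1.25). *S100a6*, a calcium-binding protein, was at -1.34 (-1.89 to -0.80), and *Osmr*, the oncostatin M receptor, at -0.99 (-1.36 to -0.62), with 67.6 and 34.1 CPM. The cathepsin *Ctsb* was at -0.75 with 363 and 336 UMIs. At the other end of the list stood *Maob*, the amine oxidase of astrocytes, at 0.23 (-0.02 to 0.48), and *Fkbp5* at 0.20. *Stat3*, a transcription factor of reactive astrocytes, was at -0.36. *C3*, often used to mark a neurotoxic reactive state, gave only 10 and 5 UMIs.

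Of these genes, *Gfap*, *Vim* and *Serpina3n* were lower outside the core members as well. *Gfap* was at -0.36 (-0.41 to -0.32) in the astrocytes outside the split, at -1.13 in oligodendrocytes and at -0.97 over all nuclei outside the gate. *Vim* was at -1.26 in the other astrocytes and at -1.18 outside the gate, and *Serpina3n* at -0.86 and -1.41. *Osmr* was at -0.05 in the other astrocytes. The size of the difference also moved with the split. When core astrocytes of both sides were combined, 1020 in PS19 and 1103 in PZKO, *Gfap* was at -0.49, *Vim* at -1.39, *Serpina3n* at -1.0 and the reactive list at -0.49. With nuclei thinned to 3000 UMIs before the split they were at -0.66, -1.58, -1.28 and -0.56, and with a threshold of 4 per 10000 UMIs in place of the raw count at -0.83, -1.82, -1.70 and -0.67. *Gfap*, *Vim*, *Serpina3n* and the reactive list were lower in PZKO under each of these 3 ways of splitting.

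The 14 genes that the study itself names as lower in PZKO astrocytes were chosen on these libraries and are no independent evidence of a direction. In core members 13 passed the filter, 10 were 1.5-fold or more lower and none was higher, with a median of -1.08 beside -0.97 in all nuclei outside the gate. *Clu*, the lipoprotein clusterin, was at -1.33 (-1.40 to -1.27), with 2304 and 914 CPM, and at -1.04 outside the gate. *Apoe*, the main lipoprotein of astrocytes, was at -0.97 (-1.05 to -0.90) and at -1.14 outside the gate. *Cst3*, a secreted cysteine protease inhibitor, was at -1.05 and at -1.16 outside the gate. For *C4b*, a complement component, 657 and 577 UMIs gave -0.83 (-0.99 to -0.66), against -0.98 outside the gate. These 4 secreted products were thus lower in PZKO to a similar extent in nuclei that were not astrocytes, and the part of free RNA in their ratios was not tested.

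Interferon-stimulated genes gave a ratio that rested on the split. Of 31 listed genes, 29 were in the count matrices and 13 passed the filter in core members. Over all members it was 8 of 14 lower and a median of -0.76. All 13 had a ratio below 0 (-1.23 to -0.06), 6 were 1.5-fold or more lower, and the median was -0.50. The 29 genes summed to 743 CPM in PS19 and 499 CPM in PZKO. In the astrocytes outside the split the sums were 1086 and 1207 CPM and the median was 0.11 over 25 genes. Combined, astrocytes on both sides of the split had a median of 0.03 over 25 genes, with 1 gene lower and none higher. After thinning to 3000 UMIs the median was -0.20 over 9 genes, none of them past 1.5-fold, and with the threshold per 10000 UMIs it was -0.58 over 14 genes. The lower level in PZKO therefore appeared in the low side of the split and not over all astrocytes, and the part of the raw-count threshold in it was not tested.

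Among the transcription factors of this list, *Irf9* (ENSMUSG00000002325, chr14:55603571-55610030, plus strand), the DNA-binding subunit of the type I interferon response, gave 77 and 51 UMIs, 37.2 and 15.8 CPM, and a ratio of -1.23 (-1.77 to -0.71). *Stat2*, its partner in that response, was at -0.21. *Irf9* was at -0.14 (-0.44 to 0.16) in the other astrocytes and at -0.42 over both sides together. Among the effectors, *Ifit3*, an antiviral protein, was at -1.15 (-1.76 to -0.56), *Gbp3*, an interferon-induced GTPase, at -1.06 (-1.64 to -0.50), and *Oasl2* at -0.90 (-1.41 to -0.39). Over both sides together these 3 stood at -0.35, 0.06 and 0.16. *Trim30a* was at -1.02 (-1.47 to -0.57) with 100 and 77 UMIs, and 24% of its PS19 UMIs came from 1 nucleus. *Rnf213*, the member with the most UMIs, stood at 94.6 and 91.1 CPM, a ratio of -0.06 (-0.32 to 0.21), and the RNA sensor gene *Ddx58* was also at -0.06. In oligodendrocytes the list had a median of 0.18 and in all nuclei outside the gate 0.04.

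**Figure D3:**
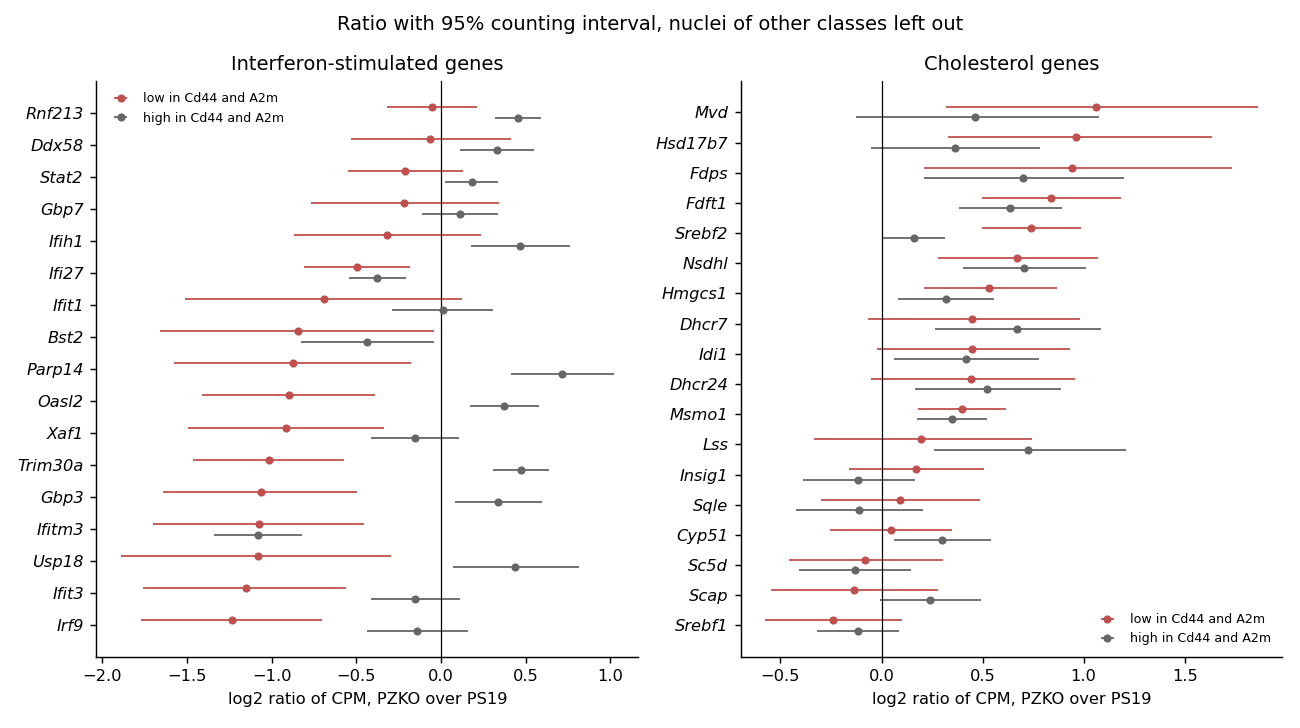
Log2 ratios of CPM, PZKO over PS19, of interferon-stimulated genes (left) and cholesterol genes (right) with at least 50 UMIs in core members, a few of them not shown, with bars for the 95% counting interval. Red points are core members, low in *Cd44* and *A2m*, and grey points are the astrocytes high in them. For *Irf9* the red point is at -1.23 and the grey point at -0.14, while *Fdft1* has both at 0.84 and 0.64.

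Cholesterol genes were higher in PZKO. Astrocytes make cholesterol through a chain of enzymes that *Srebf2* switches on. Of 20 genes, 18 passed the filter, 6 were 1.5-fold or more higher, none was lower, 15 were above 0, and the median was 0.45. Over all members it was 4 of 20 higher, none lower and a median of 0.36. The 20 genes summed to 919 CPM in PS19 and 1228 CPM in PZKO. The medians were 0.36 in the other astrocytes, 0.11 in oligodendrocytes and 0.14 in all nuclei outside the gate, so both astrocyte medians lay above those of the other nuclei. The list stayed above 0 with all core astrocytes together (0.43, 6 genes higher), after thinning (0.37, 0 genes past 1.5-fold), and with the threshold per 10000 UMIs (0.60, 10 genes higher).

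Of the enzymes, *Fdft1* (ENSMUSG00000021273, chr14:63145150-63179578, minus strand), the squalene synthase that commits the pathway to sterols, gave 97 and 270 UMIs, 46.8 (37.98 to 57.1) and 83.6 CPM (74.0 to 94.2), and a ratio of 0.84 (0.50 to 1.19). *Hmgcs1*, an early enzyme of the pathway, was at 0.53 (0.21 to 0.87). The later enzymes *Nsdhl* and *Hsd17b7* were at 0.67 (0.28 to 1.07) and 0.96, and *Msmo1*, the member with the most UMIs, at 0.40 (0.18 to 0.62) with 259 and 532 UMIs. Not every step was higher. *Cyp51* was at 0.05, *Sqle* at 0.09 and *Sc5d* at -0.08.

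The regulators were likewise uneven. *Srebf2* (ENSMUSG00000022463, chr15:82147181-82205379, plus strand), the factor that drives the sterol genes, stood at 92.7 and 155 CPM, a ratio of 0.74 (0.50 to 0.99), and in the other astrocytes it was at 0.16 (0.01 to 0.31). *Srebf1*, which acts on fatty acid genes, was at -0.24 (-0.57 to 0.10), and *Scap*, the escort of both factors, at -0.14. *Insig1*, which holds that escort back, was at 0.17.

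Neurons secrete sonic hedgehog and astrocytes carry the proteins that read it. These hedgehog genes leaned higher in PZKO. Of 12 listed genes, 7 passed the filter, 1 was 1.5-fold or more higher, none was lower, and the median was 0.30, beside 0.17 in the other astrocytes and -0.14 in oligodendrocytes. Over all members 1 of 10 was higher, 1 was lower, and the median was 0.16. The receptor *Ptch1*, itself a target of the pathway, was at 0.39 (0.23 to 0.55), with 241 and 316 CPM. *Smo*, the transducer that it restrains, was at 0.30, and the inhibitor *Sufu* at 0.45 (0.09 to 0.82). Of the transcription factors, *Gli2* (ENSMUSG00000048402, chr1:118834132-119053619, minus strand) gave 387 and 971 UMIs, 187 and 301 CPM, and a ratio of 0.69 (0.52 to 0.86), and *Gli3* was at 0.28 (0.18 to 0.39). *Gli1*, the most used readout of the pathway, stood at 59.9 and 60.4 CPM in core members, a ratio of 0.01. That ratio moved with the split. It was 0.45 (0.19 to 0.70) with all core astrocytes together, 0.46 (-0.03 to 0.96) after thinning, and 0.07 with the scaled threshold in place of the raw count. The co-receptor *Boc* was lower in core members, at -0.50 (-0.77 to -0.22), and with the scaled threshold, at -0.37. With all core astrocytes together *Boc* was at 0.06 (-0.06 to 0.19), and after thinning at 0.14 (-0.19 to 0.47). The lower level of *Boc* therefore rested on the split. *Hhip* (ENSMUSG00000064325, chr8:79965851-80058006, minus strand), a target that binds the ligand, had only 18 and 76 UMIs, a ratio of 1.44 (0.68 to 2.27), and 17% and 12% of them came from 1 nucleus. *Gas1*, a co-receptor with as few UMIs (53 and 42), went the other way at -0.98 (-1.60 to -0.36).

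Core functions of astrocytes had medians near 0 in core members. Of 17 identity genes all passed the filter, 2 were 1.5-fold or more lower, none was higher, and the median was -0.02. Over all members 5 of the 17 were lower, none was higher, and the median was -0.24. The list summed to 14921 CPM in PS19 and 15215 CPM in PZKO. Its lower members were *Atp1b2*, the sodium pump subunit of astrocytes, at -0.86 (-0.99 to -0.72), the factor *Sox9* at -0.59, and *Gja1*, the gap junction protein connexin 43, at -0.58 (-0.68 to -0.49). *Aldh1l1*, a folate enzyme, was highest at 0.46 (0.20 to 0.72). Of 12 genes of glutamate and GABA handling none was past 1.5-fold and the median was 0.05, beside -0.09 over all members. *Slc1a2* was at 0.14 (0.11 to 0.17), *Slc1a3* at -0.17 (-0.22 to -0.13), and *Glul*, which turns glutamate into glutamine, at 0.05 (-0.05 to 0.16), with 583 and 606 CPM. The GABA transporter *Slc6a11* was at 0.35 (0.20 to 0.50) and the lysosomal carrier *Slc17a5* at -0.49.

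Ion and water transport had 15 genes, of which 2 were 1.5-fold or more lower and 1 higher, with a median of 0.04. Over all members 3 were lower and 1 higher, with a median of -0.09. *Aqp4*, the water channel of the end-feet, was at -0.85 (-0.99 to -0.71), though it is a gene of the rule, and at -0.19 in the other astrocytes. *Slc8a1*, a sodium-calcium exchanger, was at 0.82 (0.43 to 1.22) and at 0.78 in the other astrocytes. The potassium channel *Kcnj10* was at 0.23 and *Kcnn3* at 0.50 (0.28 to 0.73). Of 16 transmitter receptors 1 was higher and none was lower, against 3 higher and 1 lower of 17 over all members. The higher gene of core members was *Gabbr2*, a subunit of the GABA-B receptor, with 105 and 188 CPM, a ratio of 0.84 (0.61 to 1.07), beside 0.73 in the other astrocytes and 0.29 in all nuclei outside the gate. The AMPA receptor subunit *Gria1* was at 0.53 (0.39 to 0.67) and the adrenergic receptor *Adrb1* at -0.54. *Grm5*, a glutamate receptor of neurons and young astrocytes, was at -0.45 (-0.63 to -0.27) in core members with 482 and 549 UMIs. Over all members it had 1704 and 4667 UMIs and a ratio of 0.61, so its direction turned with the nuclei of other classes.

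Of 26 genes that act on synapses, 2 were 1.5-fold or more lower and 3 higher, with a median of 0.21, against 5 lower and 3 higher of 29 over all members. *Thbs4*, a thrombospondin, was at -1.06 (-1.27 to -0.86) and *Sparc*, a matrix protein that restrains synapse formation, at -0.82. *Tenm2*, an adhesion protein, was at 1.05 with 46 and 148 UMIs, *Lrrtm4* at 0.80 and *Tnc* at 0.64. Over all members *Tenm2* had 1703 and 7455 UMIs (ratio 1.28), so most of its UMIs lay in the nuclei left out. *Lrrtm4* was at 0.16 over all members. The part of remaining RNA of other classes in these ratios was not tested. *Mertk*, a phagocytic receptor, was at 0.47. Of 21 astrocyte transcription factors 3 were lower and none was higher, and the median was 0.05, against 5 of 22 lower and a median of -0.17 over all members. *Hopx* was at -0.88, *Id3* at -0.60, and *Zbtb20*, the most abundant, at 0.00. Lists of junction and adhesion, growth factor and Notch genes had no member past 1.5-fold in either direction, with medians of 0.04, 0.11 and 0.05, and so did the circadian clock with 18 genes and a median of 0.08. Genes of innate sensing and NF-kB had a median of -0.04 over 10 genes, and the 1 lower gene was the chemokine *Cxcl5* at -1.70 (-2.22 to -1.19). Of the *Zbp1* pathway 5 genes passed, with a median of 0.02, and the higher gene was the kinase *Ripk1* at 0.79 (0.27 to 1.33) with 43 and 116 UMIs. Over all members *Ripk1* was at 0.40 and in the other astrocytes at 0.32, and neither set had a gene of this list past 1.5-fold higher.

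Several broad sets were lower in PZKO in core members as they were in nuclei outside the gate. Of 79 cytosolic ribosomal protein genes, 30 were 1.5-fold or more lower, none was higher, and the median was -0.48, beside -0.53 in all nuclei outside the gate. *Rps15a* was lowest at -1.13 (-1.54 to -0.71). Of 12 mitochondrially encoded genes 9 were lower, with a median of -0.65 beside -0.78 outside the gate, and *mt-Co1* was at -0.55. The median share of mitochondrial UMIs was 0.639% in PS19 members and 0.398% in PZKO members. Of 15 stress and protein quality genes 9 were lower, with a median of -0.66 beside -0.65. *Cryab*, a small chaperone, was at -1.44, and *Ubb*, a ubiquitin gene, at -1.08. Of 14 metallothionein and antioxidant genes 5 were lower, with a median of -0.49 beside -0.64. *Mt1*, which binds zinc, stood at 580 and 336 CPM, a ratio of -0.78 (-0.90 to -0.66), and at -1.36 outside the gate.

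Genes at 2 times or more the CPM of all nuclei outside the astrocyte gate, in each library, are called enriched here. They numbered 1369 in core members. The astrocytes high in *Cd44* and *A2m* took no part in that comparison. In PS19, *Gfap* stood at 649 CPM in core members against 1329 CPM in the high astrocytes, and *Clu* at 2304 against 2178 CPM. Of the 1369 genes, 83 (6.06%) were 1.5-fold or more lower in PZKO and 36 (2.63%) were higher, with a median of 0.01. Over all members the balance was different, with 176 of 1223 enriched genes (14.4%) lower, 9 (0.736%) higher and a median of -0.18. The 10 lowest by the interval end nearest to 0 were *Clu*, *Serpina3n*, *Cxcl5*, *Gm19951*, *Cst3*, *Gfap*, *Apoe*, *Thbs4*, *Cd81* and *S100a6*. Of those not yet described, *Gm19951* was at -1.46 and at -1.40 outside the gate, and the tetraspanin *Cd81* at -0.99 and -0.98. *Thbs4* was at -0.18 outside the gate. Among the 10 highest were *Dio2*, *Gli2*, *Fdft1*, *Caskin1*, *Cables1*, *Epas1*, *Smim3*, *Nhsl1* and *Emx2os*. *Dio2*, the deiodinase with which astrocytes activate thyroid hormone, gave 132 and 370 UMIs, 63.7 and 115 CPM, and a ratio of 0.85 (0.56 to 1.14), beside 0.34 in the other astrocytes and 0.08 outside the gate. The hypoxia factor *Epas1* was at 0.69 (0.42 to 0.96), *Caskin1* at 0.67 (0.48 to 0.85) and *Smim3* at 0.85.

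Within each library the members also differed from the astrocytes high in *Cd44* and *A2m*. The split was made on 4 genes of these same nuclei and the deeper nuclei lie on its high side, so the ratios describe the split and are not tested. Of 9110 genes with at least 100 UMIs in each library, without nuclei of other classes, 468 (5.14%) were 1.5-fold or more lower in the low astrocytes of both libraries and 86 (0.944%) were higher in both. With those nuclei included, 471 of 9920 genes (4.75%) were lower and 430 (4.33%) were higher. *Unc13c*, which primes synaptic vesicles for release, stood at 199 against 66.7 CPM in PS19 and 251 against 52.8 CPM in PZKO, log2 ratios (low over high) of 1.58 and 2.25. *Gli1* stood at 59.9 against 12.3 CPM and 60.4 against 22.8 CPM, ratios of 2.28 and 1.41. The sialyltransferase *St6galnac5* was at 1.36 and 1.63, the carbonic anhydrase-related *Car8* at 1.87 and 1.68, *Pdzph1* at 1.44 and 1.48, and *Gabbr2* at 1.06 and 1.17. *Mfge8*, a secreted bridge between dying cells and phagocytes, was at 1.21 and 1.30. The noncoding *C130073E24Rik* and *C030005K06Rik* were at 1.80 and 1.72 and at 1.51 and 1.70. *Htr2c*, the last of the 10, is a choroid plexus gene, and 1 nucleus held 93% and 92% of its UMIs.

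On the lower side, *Cp*, the iron oxidase ceruloplasmin and a reactive gene, stood at 7.24 against 64.7 CPM in PS19 and 5.58 against 50.8 CPM in PZKO, ratios of -3.16 and -3.19. The adhesion protein *Chl1* was at -2.35 and -2.83, the protease *Adam12* at -3.17 and -4.83, the actin cross-linker *Flnc* at -3.02 and -4.11, and the glycoprotein *Gpnmb* at -2.42 and -2.94. *Plscr2*, *Aebp1*, *Asap3*, *Ccdc3* and *C530044C16Rik* completed the 10. By list, the reactive genes had medians of -1.21 in PS19 and -1.91 in PZKO, the interferon-stimulated genes -0.59 and -1.41, the cholesterol genes 0.53 and 0.60, and the glutamate and GABA genes 0.34 and 0.36. The last 2 lists were therefore higher in the low astrocytes of both libraries. *Grm3*, a glutamate receptor of astrocytes, was at 0.68 and 0.82, *Slc1a2* at 0.42 and 0.37, *Gfap* at -1.03 and -1.76, and *Vim* at -1.39 and -2.13.

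**Figure D4:**
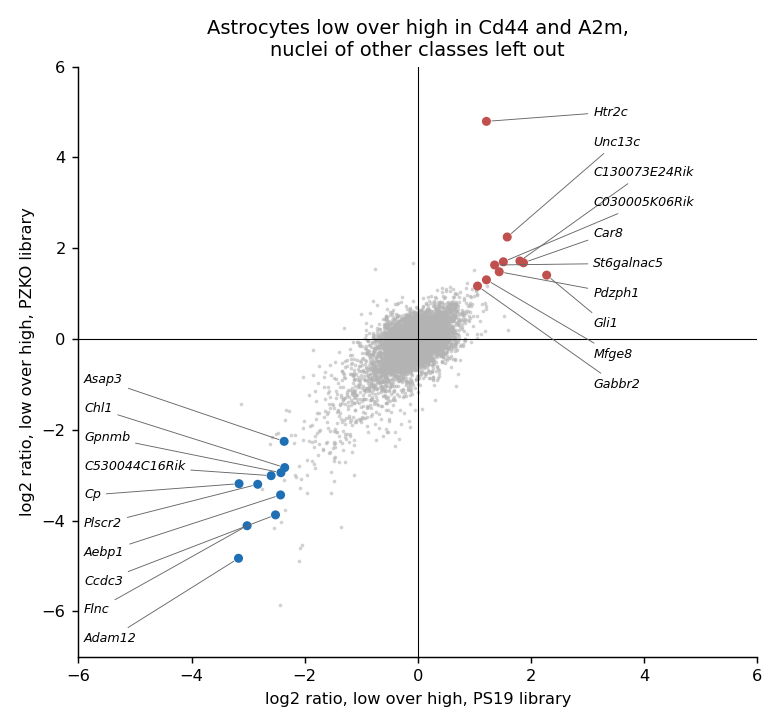
Each grey point is a gene with at least 100 UMIs in each library, placed by its log2 ratio of CPM in astrocytes low over those high in *Cd44* and *A2m*, in the PS19 library (x axis) and the PZKO library (y axis), without nuclei of other classes. Red points are the 10 genes highest and blue points the 10 genes lowest by the interval end nearest to 0, and *Htr2c* stands apart at 1.21 and 4.79 with most of its UMIs from 1 nucleus.

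*Gfap* varied widely among the members themselves. Each core member with at least 3000 UMIs was thinned to that number, which left 317 nuclei in PS19 and 405 in PZKO and dropped 36 and 16. At equal depth, 103 PS19 nuclei (32.5%, exact binomial 95% interval 27.4 to 37.95) and 51 PZKO nuclei (12.6%, 9.52 to 16.2) held 3 or more *Gfap* UMIs. No *Gfap* UMI was found in 109 (34.4%) and 224 (55.3%). Before thinning, 79.3% and 58.7% of core members had at least 1. In oligodendrocytes, which do not make *Gfap*, 1.69% and 0.493% of thinned nuclei held 3 or more. In the other astrocytes, nuclei of other classes included, it was 59.8% and 42.8%. At least 1 *Gfap* UMI was found in 23.4% and 14.9% of thinned oligodendrocytes, against 65.6% and 44.7% of core members. Over all members the shares were 28.1% and 12.2%. The cut on 3 UMIs is a point in a range and not a type, since 45 and 44 nuclei held 2 UMIs and 27 and 17 held 3.

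**Figure D5:**
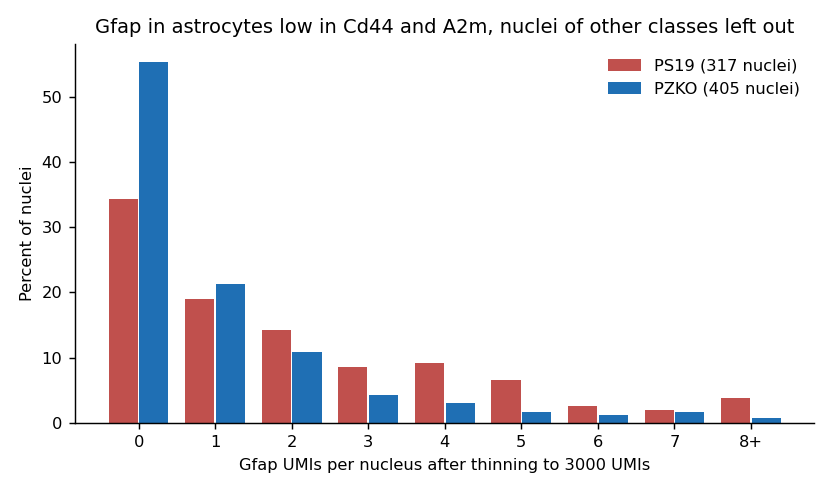
Bars give the percent of core members with each number of *Gfap* UMIs after thinning to 3000 UMIs, for 317 PS19 nuclei and 405 PZKO nuclei. The bar at 0 is 34.4% in PS19 and 55.3% in PZKO, and the PS19 bar is the higher one at every number from 2 upward.

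Other genes differed along that range in both libraries. Among 990 genes with at least 100 UMIs in each library after thinning, 27 (2.73%) were 1.5-fold or more lower in nuclei with 3 or more *Gfap* UMIs than in nuclei with none, in both libraries, and 26 (2.63%) were higher. Over all members, 75 of 1281 genes (5.85%) were lower and 43 (3.36%) were higher. *Grm5* stood at 343 against 110 CPM in PS19 and 549 against 87.8 CPM in PZKO, log2 ratios of 1.64 and 2.64. *C4b* stood at 453 against 235 CPM and 536 against 87.8 CPM, ratios of 0.94 and 2.61. The phospholipase *Plce1* was at 1.44 and 2.0, *Cyp7b1*, which hydroxylates oxysterols, at 0.80 and 0.92, and the potassium channel partner *Kcnip4* at 1.48 and 1.22. *Dst*, *Usp24*, *Lrp1b* and *mt-Co2* were also among the 10.

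The opposite end of the range was led by *Unc13c*, at 29.1 against 413 CPM in PS19 and 52.3 against 326 CPM in PZKO, ratios of -3.83 and -2.64. *Luzp2* followed at -1.24 and -1.02, *St6galnac5* at -1.36 and -1.02, the kinase *Wnk2* at -1.24 and -1.18, *Rgs6* at -1.96 and -0.93, the potassium channel *Kcnd2* at -0.74 and -1.12, and the thyroid hormone transporter *Slco1c1* at -0.76 and -0.91. *Fat3*, *Pcdh7* and *Gpc5* completed the 10, and *Gpc5* is a gene of the rule. Over 15 genes, astrocyte identity had medians of 0.09 and 0.06 along this range, while 4 genes that differ among astrocytes of brain regions, *Unc13c* among them, had medians of -0.43 and -0.39. Mitochondrially encoded genes (9 genes) were higher in the nuclei with *Gfap*, with medians of 0.84 and 0.53, as were 5 metallothionein and antioxidant genes (0.64 and 0.40) and 2 oligodendrocyte markers (0.66 and 0.49). The part of RNA quality and of RNA from other classes in the range of *Gfap* was not tested.

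Several of these genes were also among the most variable over core members in both libraries. By Pearson residual variance over 3834 genes, the first 10 were *Luzp2* (11.5 in PS19 and 12.9 in PZKO), *Trpm3*, *Csmd1*, *Nnat*, *mt-Co3*, *Gria1*, *Kcnd2*, *Thbs4*, *mt-Co1* and *Erbb4*. *Thbs4* came from 97 PS19 and 88 PZKO nuclei and *Unc13c*, which ranked 16, from 79 and 148. Over all members, neuronal genes such as *Kcnip4*, *Nrg3*, *Opcml* and *Syt1* and precursor genes such as *Lhfpl3* and *Tnr* were among the first 30.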

How the data were processed

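Nuclei were isolated with detergent lysis from snap-frozen hippocampi, and 3′ libraries were sequenced by a service provider. The labels also state that hippocampi of individual animals were processed separately. The authors counted UMIs with Cell Ranger on mm10 (version 7.0.1 in the labels and methods, 8.0.1 in the file headers), and the deposited values are raw counts over 32285 genes. The ambient RNA correction and doublet removal of the methods were not part of them. The libraries past the filter held 113139743 UMIs (PS19) and 169430489 UMIs (PZKO), core members 2070859 and 3227825.

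The thresholds on other classes were, per 10000 UMIs, *St18* and *Prr5l* below 10 and each of *Inpp5d* with *Csf1r*, *Dnah12* with *Ccdc180*, and *Pdgfra* with *Cspg4* below 5. UMIs were summed over nuclei and scaled to CPM, and log2 ratios carry exact conditional binomial (Clopper-Pearson) 95% intervals, CPM exact Poisson intervals. PCR duplicates are collapsed by UMIs, and intervals cover counting error only. A gene counted as past the fold at 1.5-fold or more, among genes with at least 100 UMIs. That filter was applied in each set of nuclei on its own, so medians of a list in different sets can rest on different genes. Scrublet (scanpy 1.11.5), at a rate of 0.8% per 1000 nuclei, marked 29 PS19 and 38 PZKO members, which were kept. Alternatives used edgeR 4.0.16 (TMM) and DESeq2 1.42.0 (size factors) in R 4.3.3. Named genes were the rule's genes, *Zbp1* and *Gfap*, the list members with the most UMIs or with the 2 lowest and 2 highest interval ends nearest to 0 plus those the description needed, and the 10 highest and 10 lowest genes of each other comparison. The scripts were tested on simulated data. Gene positions came from GENCODE M21. Members and lists were chosen with earlier results of these data known. A few genes that these rules select are not reported here.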

Additional observations from a re-analysis of the deposited data

How the results depend on the processing

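No paired analysis was possible because each genotype has 1 library, and for the same reason no replicate could be left out. Of the 14 list medians recomputed between genotypes in core members, 12 kept their sign under every alternative run on that set. The exceptions were interferon-stimulated genes and astrocyte identity genes (-0.05 to 0.06). The interferon median was 0.03 with astrocytes low and high in *Cd44* and *A2m* together, and -0.18 for both together with nuclei of other classes included. The cause was not tested for any change given here.

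Over all members, DESeq2 size factors gave 516 genes lower in PZKO, the filter at 20 UMIs 1938 lower and 1110 higher, removal of neuronal nuclei 439 and 128, removal of all other classes 400 and 139, and thinning to 3000 UMIs 326 and 116, with a reactive median of -0.51 after thinning. The excitatory neuron list turned from 0.70 to -0.12 without neuronal nuclei, -0.16 without all other classes and -0.071 after thinning, and had no finite median with the ambient profile subtracted. In core members, 243 genes were higher with TMM, 246 with DESeq2 size factors and 215 with an ambient profile subtracted at its estimated share (29.99% of PS19 and 36.4% of PZKO UMIs of core members). The filter at 20 UMIs gave 1484 lower and 618 higher, and both sides of the split together gave 655 lower.

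The share of nuclei was 4.10% in PS19 with the strict filter (1000 UMIs, 500 genes, 1% mitochondrial), 3.77% and 4.49% without neuronal nuclei, 3.37% and 4.16% without all other classes, 3.48% and 4.55% with an astrocyte sum of 60, 6.04% in PZKO with the threshold per 10000 UMIs, and 8.15% and 10.1% after thinning. For low over high, 112 genes were higher in both libraries without neuronal nuclei, 86 without all other classes and 74 with a sum of 60, thinning gave 163 lower and 174 higher, and the filter at 20 UMIs 925 and 808. Along the range of *Gfap*, starting from 75 lower and 43 higher over all members, the strict filter gave 48 and 25, Scrublet 46 lower, removal of neuronal nuclei 37 and 21, of all other classes 27 and 26, a sum of 60 gave 14 and 22, and the filter at 20 UMIs 423 and 246.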

Other observations

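Most lists not described so far held few genes past 1.5-fold in core members. Of 10 genes that respond to glucocorticoids, 2 were higher in PZKO and 1 was lower, against 0 and 1 of 12 over all members. The higher genes were *Zbtb16*, at 0.63 (-0.01 in the astrocytes high in *Cd44* and *A2m*), and *Tsc22d3*, at 0.59 (0.14), both textbook targets of the glucocorticoid receptor, while *Fkbp5*, another such target, was at 0.20. The lower gene was *Mt2* at -0.60. Of 14 Wnt pathway genes 1 was higher, the receptor *Lgr6* at 0.61 with 39 and 93 UMIs, and the readout *Axin2* was at 0.39 with 71 and 145 UMIs. Only 2 of 21 immediate early genes passed the filter, *Jund* at -0.97 and *Jun* at -0.66.

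Of 22 genes of glucose, glycogen and fatty acid use 1 was lower, *Gapdh* at -0.59 against -0.73 in all nuclei outside the gate, and *Ppara*, a factor that switches on fatty acid oxidation, was highest at 0.37 (0.09 to 0.65). Of 16 genes of lipid handling *Clu* and *Apoe* were the only ones past 1.5-fold. Of 72 nuclear-encoded genes of oxidative phosphorylation 19 were lower and 1 was higher, with a median of -0.43 beside -0.47 outside the gate. Among complement genes the microglial *C1qa* was at -1.27 and at -1.30 outside the gate. *Malat1*, a nuclear noncoding RNA, was at -0.16, and *Snhg11* was at 0.75 with 65 and 170 UMIs. Over all members *Snhg11* had 1642 and 5808 UMIs (ratio 0.98), so most of its UMIs lay in the nuclei left out.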
